A study of Oryctolagus cuniculus with 4 samples.

Results

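Supraspinatus muscle taken 2 weeks after tenotomy and then stored was compared with stored healthy supraspinatus muscle. The comparison takes every spot under tissue in both sections, 854 spots of the 2-week section and 2440 of the stored healthy section, which together are 3294 of the 6970 spots in the series. Sections were chosen by their labels, and no measured value entered the choice. The question was which genes and gene classes stood higher or lower after 2 weeks without a tendon attachment.

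The animals were New Zealand White rabbits, all of them adult females aged 6 months. The 2-week section (6L) came from a muscle whose supraspinatus tendon had been cut, and the stored healthy section (14R) from an uncut muscle. Both had been frozen in cooled isopentane and kept deep-frozen for 6 years. The healthy section carries the same number, 14, as the section collected 16 weeks after tenotomy (14L), and if that number names the animal, its other supraspinatus had been cut. A healthy section of recently frozen muscle (211R) came from another animal and served as the second reference. There was 1 section per condition, so the effect of tenotomy and differences between animals, sides and cutting planes cannot be told apart.

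Spatial expression was measured on a Visium slide. Each printed spot captures the 3′ ends of polyadenylated RNA from the muscle fibers and other cells above it, and each molecule is counted once by its unique molecular identifier (UMI). A tendon holds its muscle under tension, and tenotomy removes that load. Skeletal muscle fibers differ in the myosin heavy chain they use. Slow fibers carry MYH7 and live mainly on oxidative metabolism, fast fibers carry MYH1 or MYH4 with a larger share of glycolysis, and MYH8 is the neonatal form that regenerating fibers use for a time. Between fibers lie fibroblasts that make collagen, along with vessels, nerves and macrophages.

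The 2-week section held 4079313 UMIs and the stored healthy section 12536450. Mitochondrially encoded genes took 33.8% of them at 2 weeks and 49.2% in stored healthy muscle (49.3% in fresh healthy muscle), so levels are given as UMIs per 10000 UMIs of all other genes. These numbered 2699937 at 2 weeks, 6366290 in stored and 3557949 in fresh healthy muscle, with medians of 3057.5, 2557 and 1833 per spot. Of the 854 spot barcodes of the 2-week section, 670 (78.5%) also occur in the stored healthy section; a barcode marks a place on the slide, so shared barcodes do not mean shared cells. Intervals are exact 95% intervals for counting error, and cover neither animals nor sections. No test could be made, and a gene is called past 2-fold when its log2 ratio of levels is at least 1 or at most -1. In sums over a section, fewer cells of a type and less RNA per cell cannot be told apart. Of the 10 muscle fiber markers listed, NEB, MYH1, MYH7 and MB have a feature of that name, and all 4 were found in both sections.

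Among 4256 genes with at least 50 UMIs over both sections, 404 (9.49%) were at least 2-fold higher at 2 weeks and 145 (3.41%) at least 2-fold lower, and the median log2 ratio was 0.21 (0.12 for the same genes over fresh healthy muscle). The 2 healthy sections differed from each other in more genes. Fresh over stored healthy muscle, 386 of 4335 genes (8.90%) were past 2-fold higher and 344 (7.94%) lower. Against the fresh section, the 2-week section was past 2-fold higher in 390 of 3882 genes (10.0%) and lower in 142 (3.66%). Of the 4256 genes above, 546 were past 2-fold higher and 142 lower over fresh healthy muscle. These counts, and the 9.49% and 3.41% over stored healthy muscle, are the background for the class counts below. Past 2-fold on the same side of both healthy sections stood 153 of the 4256 genes above (3.59%) and 40 below (0.940%). The balance of higher and lower genes depended on scaling. Genes past 2-fold were 73.6% higher ones with mitochondrial genes left out of the denominator, but 93.8% (1027 higher, 68 lower) with all UMIs as the denominator, which adds 0.38 to every log2 ratio, and 49.9% (226 higher, 227 lower) when the median log2 ratio was set to 0. With a minimum of 200 UMIs, 65.8% of the genes past 2-fold were higher, and where the bound of the counting interval had to pass 2-fold, 63.7%.

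**Figure D1:**
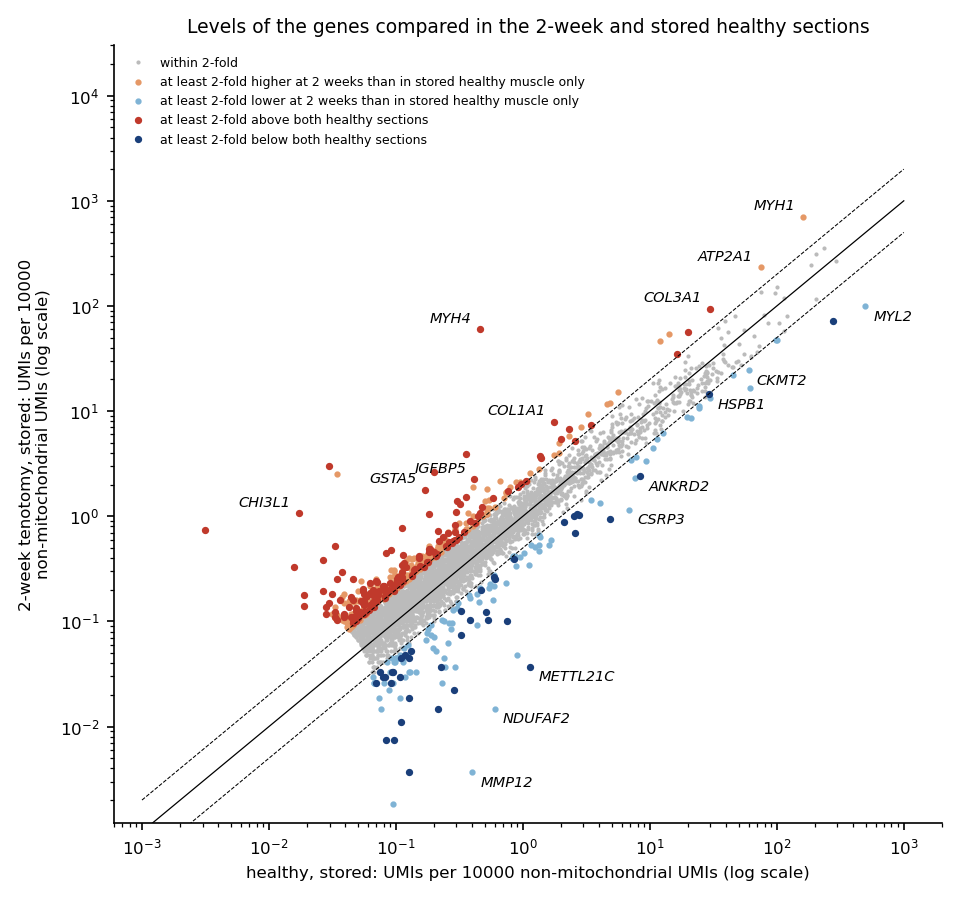
Levels of the 4256 genes compared, as UMIs per 10000 non-mitochondrial UMIs in the stored healthy section (x axis, log scale) and the 2-week section (y axis, log scale). Each point is 1 gene, the solid line marks equal levels and the dashed lines 2-fold differences. MYH4, at 60.2 against 0.459, lies far above the line, and 404 genes lie above and 145 below the band between the dashed lines.

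Fast fiber genes were higher at 2 weeks than in stored healthy muscle. Of 15 listed genes, 8 have a feature of that name. All 8 compared had a log2 ratio above 0, 4 were past 2-fold higher and 0 lower, with a median log2 ratio of 1.12. Over fresh healthy muscle the class median was 0.66, and MYH4 was the only 1 past 2-fold. MYH4, the heavy chain of the fastest fiber type, had a level of 60.2 at 2 weeks against 0.459 in stored healthy, 0.523 in fresh healthy and 0.135 in 16-week muscle. Its log2 ratio was 7.03 [95% interval 6.87 to 7.21] over stored healthy and 6.84 over fresh healthy muscle. The 2-week section thus stood apart from the other 3 sections in this gene. It was also widespread. Spots with at least 1000 non-mitochondrial UMIs were thinned to 1000, and shallower spots were left out. That removed 69 of 854 spots at 2 weeks, 176 of 2440 in stored and 486 of 1950 in fresh healthy muscle. Of the thinned 2-week spots, 85.5% had an MYH4 UMI, against 3.27% in stored and 3.62% in fresh healthy muscle. The 5% of spots with most MYH4 held 27.6% of its UMIs at 2 weeks.

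MYH1, the fast heavy chain most used here, had a level of 707 at 2 weeks, 162 in stored healthy and 395 in fresh healthy muscle. Its log2 ratio of 2.13 over stored healthy muscle was 0.84 over fresh healthy muscle, short of 2-fold. ACTN3, the Z-disc actinin of fast fibers, had log2 ratios of 1.96 and 0.48. ATP2A1, the calcium pump of the fast sarcoplasmic reticulum, had 1.64 and 0.92. The other 4 members, MYL1, TPM1, MYLK2 and CASQ1, had log2 ratios between 0.15 and 0.60 over stored healthy muscle. Over fresh healthy muscle, MYL1 had 0.10 and TPM1 -0.24. Related myosin heavy chains share much of their coding sequence, and MYH2 has no feature of that name, so reads of one could have been counted to another.

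**Figure D2:**
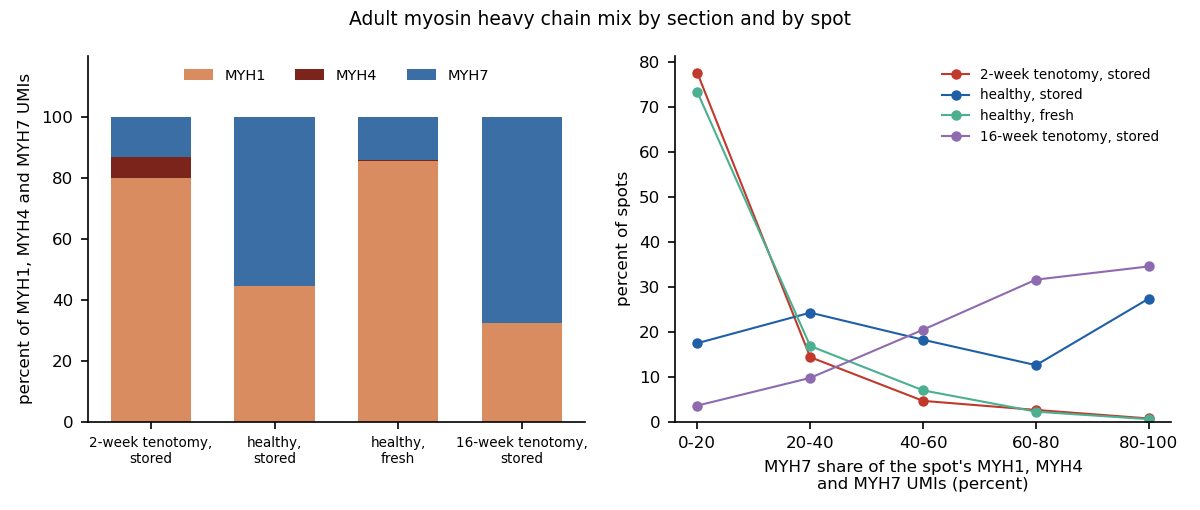
Adult myosin heavy chain mix. Left, share of MYH1, MYH4 and MYH7 in their summed UMIs for each section (percent). Right, percent of spots (those with at least 10 such UMIs) in each of 5 ranges of the spot's MYH7 share. The 2-week and fresh healthy sections have most spots in the lowest range, 77.7% and 73.4%, and the stored healthy section 17.5%.

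Most slow fiber genes stood lower at 2 weeks than in stored healthy muscle and close to fresh healthy muscle. Of 10 members, 5 were past 2-fold lower and 0 higher, with a median log2 ratio of -1.03 over stored healthy muscle but 0.08 over fresh healthy muscle, and 0.28 over stored healthy muscle when 2-week spots were weighted to the MYH7 shares of its spots. MYH7, which sets these weights, is itself a member of the class. The weighting also lets 6 spots of the 2-week section stand for 27.4% of the stored healthy spots. MYL2, the regulatory light chain of slow fibers, had a level of 98.8 at 2 weeks, 495 in stored healthy and 114 in fresh healthy muscle. The stored healthy section was the high one, and the log2 ratio was -2.33 [95% interval -2.34 to -2.31] over it and -0.20 over the fresh section. MYOZ2, a Z-disc protein of slow fibers, had log2 ratios of -1.75 and -0.51, MYH7B -1.70 and -0.08, the slow light chain MYL3 -1.09 and 0.38, and the slow troponin C gene TNNC1 -1.06 and 0.14. TNNI1, the slow troponin I gene, had 0.88 and -0.02, and the slow calcium pump gene ATP2A2 0.15 and 0.89; these 2 were above 0 over stored healthy muscle. MYH7 itself had a level of 117 at 2 weeks against 202 and 66.5, with log2 ratios of -0.79 and 0.81.

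The same held for the mix of heavy chains. MYH7 made up 13.2% of MYH1, MYH4 and MYH7 UMIs at 2 weeks, 55.4% in stored healthy, 14.4% in fresh healthy and 67.7% in 16-week muscle. The 2 sections numbered 14 were the slow ones. Spots with an MYH7 share under 20% numbered 654 at 2 weeks, 411 in stored healthy and 1316 in fresh healthy muscle. Within such spots, the log2 ratio over stored healthy muscle was 5.24 for MYH4, 0.96 for MYH1, 1.01 for ATP2A1, -1.63 for MYL2, -0.95 for MYOZ2 and -0.40 for TNNC1. MYH4 and MYL2 stayed past 2-fold there, and ATP2A1 lay at the threshold. MYH1 and MYH4 UMIs are part of the share that selects these spots, so their own values there are not independent of the selection. The part that the fiber mix of the 2 animals has in the fast and slow genes cannot be told apart from that of tenotomy.

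Developmental sarcomere genes had no common side against stored healthy muscle. Of 13 listed genes with a feature, 9 could be compared, 2 were past 2-fold higher and 1 lower (median log2 ratio 0.19 over stored and 1.54 over fresh healthy muscle). MYH8, the neonatal heavy chain, had a level of 3.61 at 2 weeks, 1.38 in stored healthy, 0.233 in fresh healthy and 0.67 in 16-week muscle, with a log2 ratio of 1.39 [95% interval 1.26 to 1.52] over stored healthy muscle. It was concentrated, since 5% of the spots held 81.8% of its UMIs at 2 weeks and 64.2% in stored healthy muscle, and without those spots the log2 ratio was 0.48. Of the thinned spots, 10.1% at 2 weeks and 9.28% in stored healthy muscle had an MYH8 UMI, so the spots with it were about as common and held more.

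MYL4, the embryonic light chain, had 117 UMIs at 2 weeks, 134 in stored healthy muscle and 1 in fresh healthy muscle, with log2 ratios of 1.04 over stored and 6.69 [95% interval 4.76 to 12.58] over fresh. With 2-week spots weighted to the fiber mix of the stored healthy section, its log2 ratio over that section was -0.85. Within spots with an MYH7 share under 20%, it was instead 2.41 [95% interval 1.54 to 3.57], with 114 UMIs at 2 weeks and 10 in stored healthy muscle. ACTC1, the cardiac actin that immature fibers also use, was lower than in stored healthy muscle and higher than in fresh, with levels of 4.50, 10.7 and 0.911 and log2 ratios of -1.25 and 2.30. In spots with an MYH7 share under 20%, its log2 ratio over stored healthy muscle was 1.02. MYBPH had log2 ratios of 0.19 and 3.37, and vimentin (VIM) 0.65 and 1.13. The stored healthy section thus held more of these transcripts than the fresh one.

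Genes of the sarcomere frame and Z-disc hardly differed from stored healthy muscle. Of 21 compared, 1 was past 2-fold higher (TMOD1, a thin filament cap, log2 ratio 1.38) and 0 lower, with a median of 0.38. The nebulin gene NEB had a log2 ratio of 0.78, and Tpm2, listed under this spelling, -0.12. Over fresh healthy muscle the class median was -0.24, so its direction depends on the reference section. Of the 21, 0 were past 2-fold higher over fresh healthy muscle and 2 lower, beside 546 and 142 of all 4256 genes compared.

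Stretch-responsive muscle genes, which encode titin- and Z-disc-bound sensors and small heat shock proteins, included several of the clearest low values. Of 14, 4 were past 2-fold lower and 0 higher, the median log2 ratio was -0.34 over stored and -0.95 over fresh healthy muscle, and 3 were past 2-fold below both. With all UMIs as the denominator, the class median over stored healthy muscle was 0.04, so its direction depends on the denominator. FHL1 (-0.96) and HSPB1 (-0.63) were then short of 2-fold, while ANKRD2 (-1.42) and CSRP3 (-2.18) stayed past it. ANKRD2, an ankyrin repeat protein of the titin spring region, had a level of 2.41 at 2 weeks against 8.42 in stored and 8.0 in fresh healthy muscle. Both healthy sections lay close together, and the log2 ratios were -1.80 [95% interval -1.92 to -1.69] and -1.73. FHL1, a LIM protein of the titin spring, had levels of 1.0, 2.55 and 2.42 in the same order and log2 ratios of -1.35 [95% interval -1.54 to -1.16] and -1.27.

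HSPB1, a small heat shock protein, had levels of 14.4, 29.1 and 83.6, with log2 ratios of -1.02 and -2.54. CRYAB, its partner at the Z-disc, had -0.98 and -1.36. CSRP3, a LIM protein of the Z-disc, was far lower than in stored healthy muscle, with 1.16 against 6.87 and a log2 ratio of -2.56 [95% interval -2.74 to -2.40], but over the fresh section (level 2.01) the log2 ratio was -0.79. ANKRD1, the close relative of ANKRD2, did not differ by 2-fold from stored healthy muscle (10.6 against 11.7, log2 ratio -0.14) and stood well under the fresh section at 44.1.

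Their values depended on which spots were compared. In spots with an MYH7 share under 20%, the log2 ratio over stored healthy muscle was -1.28 for ANKRD2, -1.21 for FHL1, -2.12 for CSRP3 and -0.80 for HSPB1. When the 2-week spots were instead weighted to the MYH7 shares of the stored healthy section, the log2 ratios came to -0.29, -0.31, -0.40 and -0.57. That weighting lets 6 spots of the 2-week section stand for the 27.4% of stored healthy spots with the highest MYH7 shares.

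**Figure D3:**
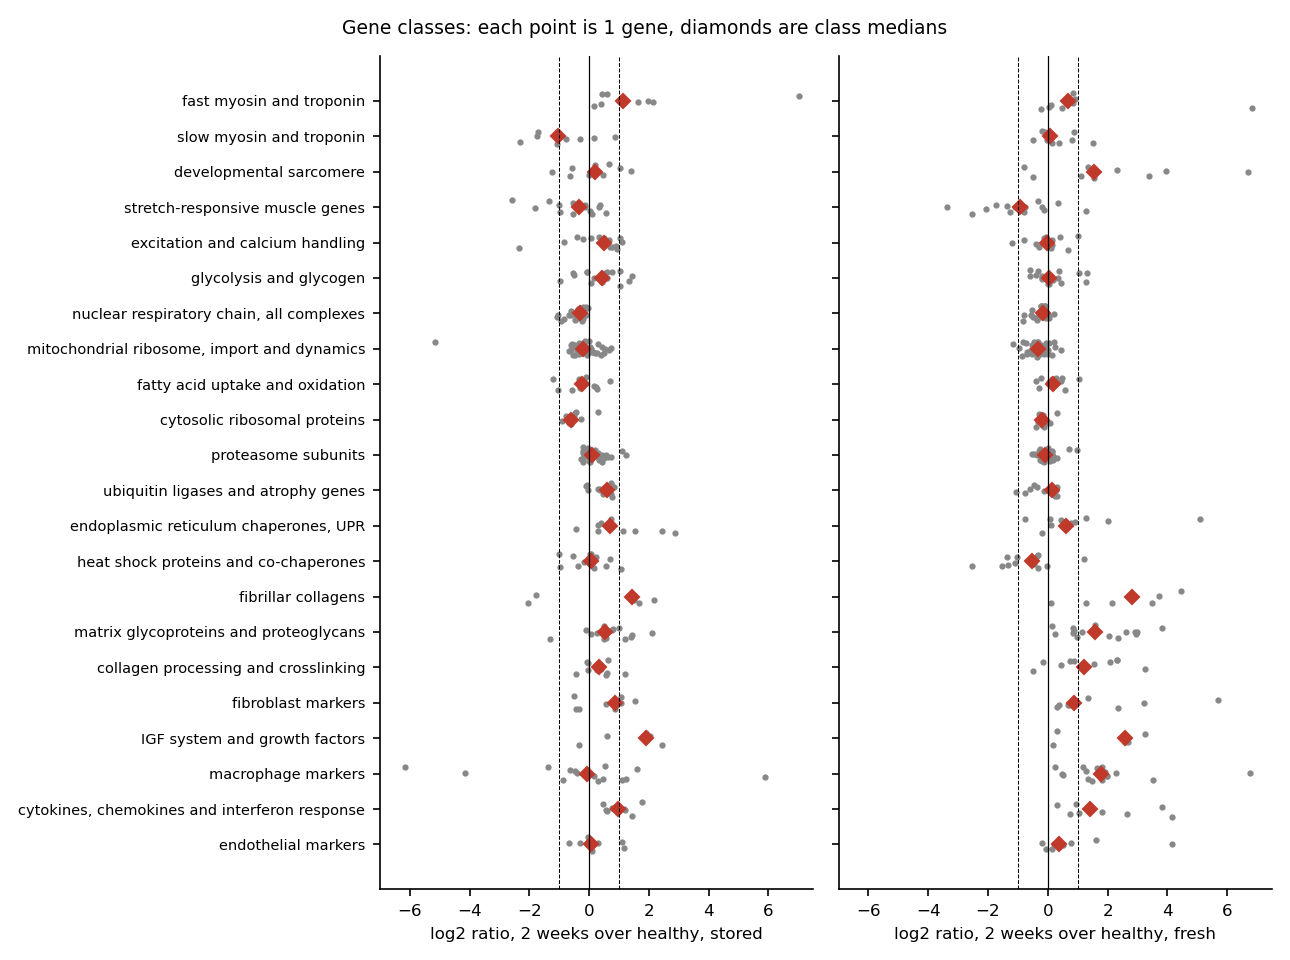
Log2 ratios of the genes in 22 classes, 2-week over stored healthy (left) and over fresh healthy muscle (right). Each grey point is 1 gene with at least 50 UMIs over the 2-week and stored healthy sections, red diamonds are class medians, and dashed lines mark 2-fold. Fibrillar collagens and the IGF system have medians above 1 in both panels, and the slow class has a median of -1.03 on the left and 0.08 on the right.

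Excitation and calcium handling genes differed little as a class. Of 15, 2 (13.3%) were past 2-fold higher and 1 (6.67%) lower, beside 9.49% and 3.41% of all genes compared. Their medians were 0.49 over stored and -0.04 over fresh healthy muscle, against 0.21 and 0.12 for all genes compared. Triadin (TRDN), which ties the calcium store to its release channel, had a level of 34.6 at 2 weeks, 16.3 in stored and 17.3 in fresh healthy muscle and log2 ratios of 1.09 and 1.0. The release channel RYR1 had 0.76 and 0.14. S100A1, a calcium-binding partner of that channel, was the low one, with levels of 0.944, 4.85 and 2.17 and log2 ratios of -2.36 [95% interval -2.55 to -2.18] and -1.2.

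Of 6 neuromuscular junction and denervation genes compared, 2 were past 2-fold higher. These were the acetylcholine receptor subunit CHRNE (36 and 31 UMIs, log2 ratio 1.45) and GADD45A, a growth arrest gene that denervated muscle is known to switch on (43 and 23 UMIs, log2 ratio 2.13 [95% interval 1.38 to 2.94]), and both were also past 2-fold above the fresh section. The alpha subunit gene CHRNA1 had log2 ratios of 0.20 over stored and 2.75 over fresh healthy muscle, and UTRN had 0.896 and 1.46. Below 0 over stored healthy muscle were RAPSN, with -0.08 and -0.95, and NCAM1, with -0.64 and 1.54 in the same order. The low counts of CHRNE and GADD45A limit their precision, and both genes are named for their values.

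Glycolytic genes were moderately higher than in stored healthy muscle. Of 17, 4 were past 2-fold higher and 0 lower, and their median log2 ratio was 0.45 over stored but 0.04 over fresh healthy muscle. The triose phosphate isomerase gene TPI1 had levels of 15.3 at 2 weeks, 5.61 in stored and 11.9 in fresh healthy muscle. PHKA1, a regulatory subunit of phosphorylase kinase, had log2 ratios of 1.35 and 0.45. ALDOA, the aldolase of muscle, had 0.61 and -0.20. Over the fresh section TPI1, PHKA1 and ALDOA were short of 2-fold. Of the 17 members, 3 were past 2-fold higher over it and 0 lower, beside 546 and 142 of all 4256 genes compared. The 1 member past 2-fold above both was ALDOC, an aldolase of brain and fat, with 99, 114 and 53 UMIs and log2 ratios of 1.03 and 1.29.

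Mitochondrially encoded transcripts were lower as a share of all UMIs. Of 13 with a symbol and at least 50 UMIs, 11 had a log2 ratio below 0 over stored healthy muscle and 12 over fresh healthy muscle, with medians of -0.58 and -0.55 on the scale of all UMIs. COX1, a core subunit of cytochrome c oxidase, had 529 UMIs per 10000 of all UMIs at 2 weeks and 976 in stored healthy muscle (log2 ratio -0.88). CYTB, the cytochrome of complex III, had 128 and 296 (log2 ratio -1.2) and was the only one of them past 2-fold. ND2 and ND6, subunits of complex I, had 0.08 and 0.94. The 20 mitochondrial features without a symbol, which are not named here, had a median log2 ratio of 1.36 and 13 of them were past 2-fold higher. Among them, 1 was past 2-fold lower, with 17 UMIs at 2 weeks, 534 in stored and 312 in fresh healthy muscle. The summed share of the features without a symbol was 7.51% of all UMIs at 2 weeks and 8.0% in stored healthy muscle. Most of it came from features with 97656 and 199101 UMIs at 2 weeks, whose log2 ratios were -0.15 and -0.11. No other held more than 2215 UMIs at 2 weeks, so the median of 1.36 describes mostly scarce features.

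Nuclear genes of the respiratory chain are again given relative to non-mitochondrial UMIs, so these values are not on the scale used for the mitochondrially encoded genes. Of 26 subunits, 2 were past 2-fold lower and 0 higher, with medians of -0.30 over stored and -0.16 over fresh healthy muscle, and all 26 had a log2 ratio below 0 over stored healthy muscle. These subunits were mostly of complex I (15), with only 5 of the ATP synthase and 2 of complex IV having a feature. Their summed level was 353 at 2 weeks, 484 in stored and 419.5 in fresh healthy muscle. The 2 past 2-fold were ATP5MC1, a subunit of the ATP synthase ring (levels 22, 45.6 and 31.8, log2 ratio -1.05), and COX4I2, an oxygen-dependent form of a cytochrome oxidase subunit (log2 ratio -1.08). With all UMIs as the denominator, the class median was 0.08, so its direction depends on the denominator. On that scale the mitochondrially encoded genes with a symbol had a median of -0.58. Of 50 genes of the mitochondrial ribosome, import and dynamics, 1 was past 2-fold lower and the median was -0.19 (0.19 with all UMIs).

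That gene was NDUFAF2, an assembly factor of complex I, with 4 UMIs at 2 weeks and 381 in stored healthy muscle (log2 ratio -5.17 [95% interval -7.22 to -3.97]). Fresh healthy muscle held 7 of its UMIs and 16-week muscle 1, so the stored healthy section was the one that stood apart. Citrate cycle genes had a median of -0.21 (0.18 with all UMIs as the denominator), with 1 of 15 past 2-fold higher and 1 lower. Genes of fatty acid uptake and oxidation had -0.24 (0.14 with all UMIs), with 2 of 11 past 2-fold lower. These were the fatty acid carrier FABP3 (log2 ratio -1.2 over stored, 0.05 over fresh healthy muscle) and the thiolase ACAT1 (-1.05 and -0.39). CKMT2, the mitochondrial creatine kinase, had levels of 24.6, 59.9 and 39.7 and log2 ratios of -1.28 [95% interval -1.32 to -1.24] and -0.69. Myoglobin (MB) had -0.80 and -0.89. CA9, a carbonic anhydrase of low-oxygen tissue, was past 2-fold below both healthy sections, with 34 UMIs at 2 weeks, 207 in stored and 333 in fresh healthy muscle (log2 ratios -1.35 and -2.87).

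Ribosomal protein genes were slightly lower than in stored healthy muscle. None of 13 was past 2-fold, 12 had a log2 ratio below 0 (RPL26L1 had 0.31), and the median was -0.61, against -0.20 over fresh healthy muscle. The class rests only on 14 features found by symbol, and their summed level was 293 at 2 weeks, 455 in stored and 336 in fresh healthy muscle. In 83.7% of the 2-week spots the class lay below the 5th percentile of the stored healthy spots. Below the 5th percentile of the fresh healthy spots lay 23.6%. With all UMIs as the denominator, the median was -0.23. Of 28 translation factors, 4 (14.3%) were past 2-fold higher, beside 9.49% of all genes compared, with a median of 0.06.

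None of 14 ubiquitin ligases and atrophy genes reached 2-fold over stored healthy muscle in either direction, and 1, FBXO40, was past 2-fold lower over fresh healthy muscle (-1.06). Their median log2 ratio was 0.59 over stored and 0.16 over fresh healthy muscle. FBXO32 (atrogin-1) and TRIM63 (MuRF1), the muscle ligases best known from atrophy, had 64 and 27 UMIs at 2 weeks and log2 ratios of 0.75 [95% interval 0.26 to 1.22] and 0.48 [95% interval -0.27 to 1.19]. The interval of TRIM63 holds both equal levels and a 2-fold difference, so its difference was not detectable at this depth. Proteasome subunits had a median of 0.09, with 2 of 29 past 2-fold higher, PSMD1 (1.22) and PSMD3 (1.10). That is 6.90%, beside 9.49% of all genes compared. Autophagy genes had 0.04 (1 of 10 higher), lysosome genes 0.39 (1 of 16 higher, 1 lower) and calpains and caspases 0.03 (none of 5 past 2-fold).

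Chaperones of the endoplasmic reticulum and genes of the unfolded protein response had a median of 0.69 over stored and 0.59 over fresh healthy muscle, with 4 of 11 past 2-fold higher and 0 lower. The 2 on this list past 2-fold above both healthy sections were PHGDH (68, 29 and 22 UMIs, log2 ratio 2.45 [95% interval 1.82 to 3.15]) and PSAT1 (38, 12 and 1 UMIs, log2 ratio 2.86 [95% interval 1.93 to 3.97]), successive enzymes of serine synthesis. Both were named after their values were seen. DNAJB9, a chaperone of the endoplasmic reticulum, had 1.15 over stored but -0.75 over fresh healthy muscle. The members with most UMIs, HSP90B1, PDIA4 and PDIA3, were short of 2-fold over stored healthy muscle. They had 0.64, 0.38 and 0.30 over stored and 0.59, 1.28 and 0.79 over fresh healthy muscle. Heat shock proteins and co-chaperones had medians of 0.05 and -0.52, with 1 of 13 past 2-fold higher (HSPB8, 1.06 over stored and -1.53 over fresh) and 1 lower (HSPB1). Their summed level was 126 at 2 weeks, 194 in stored and 310.2 in fresh healthy muscle.

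Among redox genes, 3 of 17 (17.6%) were past 2-fold higher and 2 (11.8%) lower (median 0.30), beside 9.49% and 3.41% of all genes compared. The microsomal glutathione transferase MGST1 (1.06 and 1.15) and the peroxidase GPX8 of the endoplasmic reticulum (1.03 and 1.78) were past 2-fold above both healthy sections. PRDX6 had -1.60 over stored and -0.18 over fresh healthy muscle. Catalase (CAT) had 1.68 and 0.31. Outside the list, GSTA5, another glutathione transferase, had 485, 107 and 150 UMIs in the 2-week, stored and fresh healthy sections and log2 ratios of 3.41 [95% interval 3.11 to 3.73] and 2.09. It was patchy, with 57.7% of its 2-week UMIs in 5% of the spots, and had 2215 UMIs in the 16-week section.

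Most fibrillar collagen genes were higher. Of 6 fibrillar collagen genes compared, 4 were past 2-fold higher, 2 lower and none in between, with median log2 ratios of 1.44 over stored and 2.82 over fresh healthy muscle. Their summed level was 159 at 2 weeks, 51.8 in stored and 13.1 in fresh healthy muscle. COL3A1, the fine fibril collagen of the muscle interstitium, had levels of 94.4, 29.7 and 8.37, with log2 ratios of 1.67 [95% interval 1.64 to 1.70] and 3.50. COL1A1 and COL1A2, the chains of type I collagen, had levels of 7.95 and 56.0 at 2 weeks, 1.77 and 19.9 in stored, and 0.36 and 4.21 in fresh healthy muscle. All 3 genes stood highest at 2 weeks of the 4 sections, with 16-week levels of 36.3 (COL3A1), 2.16 (COL1A1) and 27.1 (COL1A2).

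The log2 ratio of COL1A1 was 2.16 [95% interval 2.06 to 2.27] over stored and 4.46 over fresh healthy muscle, that of COL1A2 1.49 [95% interval 1.46 to 1.53] and 3.73, and that of COL5A2, a minor chain of the same fibrils, 1.39 [95% interval 0.98 to 1.80] and 2.14. The exceptions were COL11A1 and COL11A2, with 15 and 9 UMIs at 2 weeks against 125 and 92 in stored healthy muscle. Over fresh healthy muscle, 5 of the 6 fibrillar collagen genes were past 2-fold higher and 0 lower. In fresh over stored healthy muscle, 5 of them were past 2-fold lower. COL3A1 was also spread out, since 98.6% of thinned 2-week spots had a UMI of it, against 78.8% in stored and 46.4% in fresh healthy muscle. In 94.3% of the 2-week spots the summed fibrillar collagens lay above the stored healthy median and in 30.3% above its 95th percentile. Leaving out spots with 5 or more COL1A1 UMIs in both sections left log2 ratios of 1.45 for COL1A1, 1.22 for COL3A1 and 1.07 for COL1A2, and all settings run kept them past 2-fold.

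**Figure D4:**
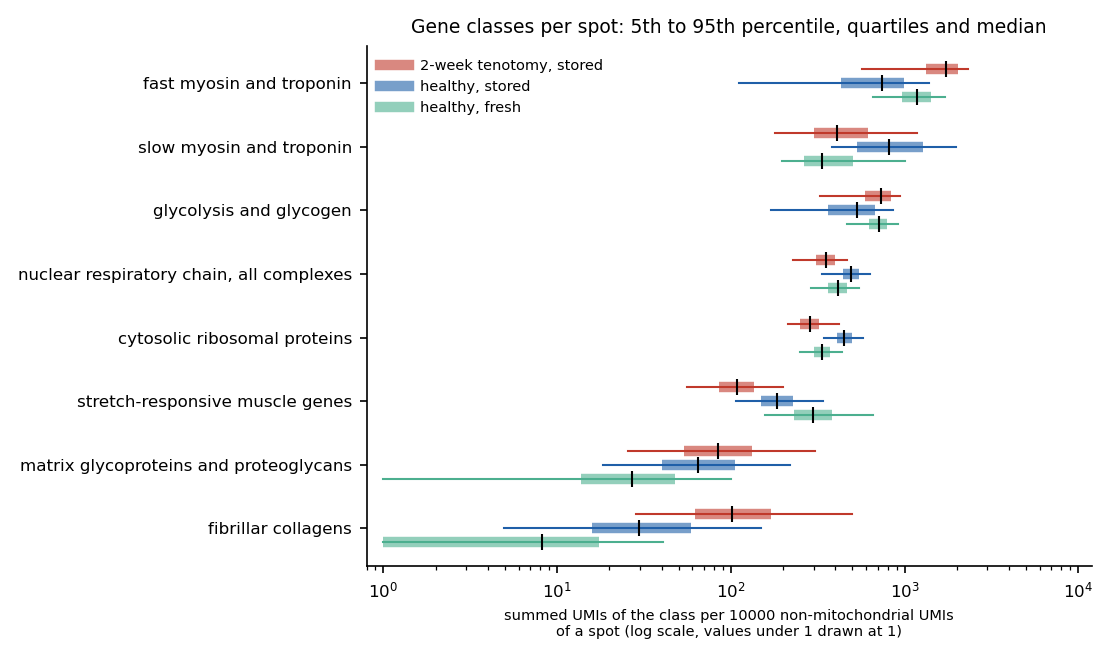
Summed UMIs of 8 classes per spot, per 10000 non-mitochondrial UMIs of the spot (x axis, log scale), in the 2-week, stored healthy and fresh healthy sections, for spots with at least 500 UMIs. Thin lines run from the 5th to the 95th percentile of spots, thick lines over the quartiles, and ticks mark medians. Fibrillar collagens have a median of 101 at 2 weeks, 29.8 in stored and 8.22 in fresh healthy muscle, and the stretch-responsive class 108, 184 and 296.

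Other matrix genes differed less. Of 16 glycoproteins and proteoglycans, 4 were past 2-fold higher and 1 lower, with medians of 0.53 over stored and 1.58 over fresh healthy muscle. The 4 higher ones also stood past 2-fold above the fresh section. They were CILP, a matrix protein first known from cartilage (1.52, 0.355 and 0.197, log2 ratios 2.10 and 2.94), the small proteoglycans osteoglycin (OGN, 1.44 and 2.33) and keratocan (KERA, 1.21 and 3.83), and the microfibril protein MFAP5 (1.41 and 1.13). Fibronectin (FN1) had levels of 13.1, 7.72 and 1.66 and log2 ratios of 0.76 and 2.97. MGP, an inhibitor of calcification, and decorin (DCN), a collagen-binding proteoglycan, had 0.08 and 0.26 over stored healthy muscle. The 1 lower member was osteopontin (SPP1), with 20, 120 and 6 UMIs and log2 ratios of -1.32 and 2.06.

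Basement membrane and other collagens had medians of 0.48 and 1.40, with none of 5 past 2-fold over stored and 3 past 2-fold higher over fresh healthy muscle. Genes of collagen processing had 0.34 and 1.21, with PLOD2, a lysyl hydroxylase of collagen crosslinks, the 1 of 10 past 2-fold higher (28 and 29 UMIs, log2 ratio 1.19 [95% interval 0.38 to 1.99]). Among matrix proteases and inhibitors, none of 12 was past 2-fold higher over stored healthy muscle and 5 were over fresh healthy muscle, and MMP2, a gelatinase, had 0.55 and 1.27. Laminins, integrins and the dystrophin complex had a median of 0.28, with 2 of 14 past 2-fold higher, LAMB2 (1.22) and SGCE (1.49). That is 14.3%, beside 9.49% of all genes compared. Fibroblast markers had medians of 0.86 and 0.88, and 3 of 9 were past 2-fold higher. Among these, SFRP2, a secreted Wnt modulator, had levels of 6.70, 2.29 and 0.129 and log2 ratios of 1.55 [95% interval 1.45 to 1.65] and 5.68. Without COL1A1-rich spots, SFRP2 (0.82), PDGFRL (0.78, from 1.07) and the proteoglycan KERA (0.69) were short of 2-fold over stored healthy muscle. The summed fibroblast marker level was 21.5 at 2 weeks, 15.6 in stored and 7.48 in fresh healthy muscle, and its part in the collagen difference was not tested.

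In the IGF system, 5 of 16 listed genes with a feature could be compared, and 3 were past 2-fold higher, all 3 against both healthy sections. IGF1, the insulin-like growth factor, had levels of 1.30 at 2 weeks, 0.317 in stored and 0.135 in fresh healthy muscle, with log2 ratios of 2.03 [95% interval 1.78 to 2.29] and 3.26. IGFBP5, the binding protein most typical of muscle, had 2.25, 0.415 and 0.374 and log2 ratios of 2.44 [95% interval 2.23 to 2.65] and 2.58. The healthy sections lay close together in IGFBP5, and 18.2% of thinned 2-week spots had a UMI of it against 3.67% and 3.21%. IGFBP4, named after its value was seen, had 1.91 and 2.70, the growth factor receptor gene MET 0.59 and 0.18, and IGFBP6 -0.34 and 0.32. Genes of TGF-beta, BMP and Wnt signalling had a median of 0.43, with 2 of 14 (14.3%) past 2-fold higher, beside 9.49% of all genes compared. Follistatin (FST), which binds myostatin and activin, was past 2-fold above both healthy sections at 53, 17 and 21 UMIs (log2 ratio 2.85 [95% interval 2.07 to 3.76]) and was chosen after its value was seen.

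**Figure D5:**
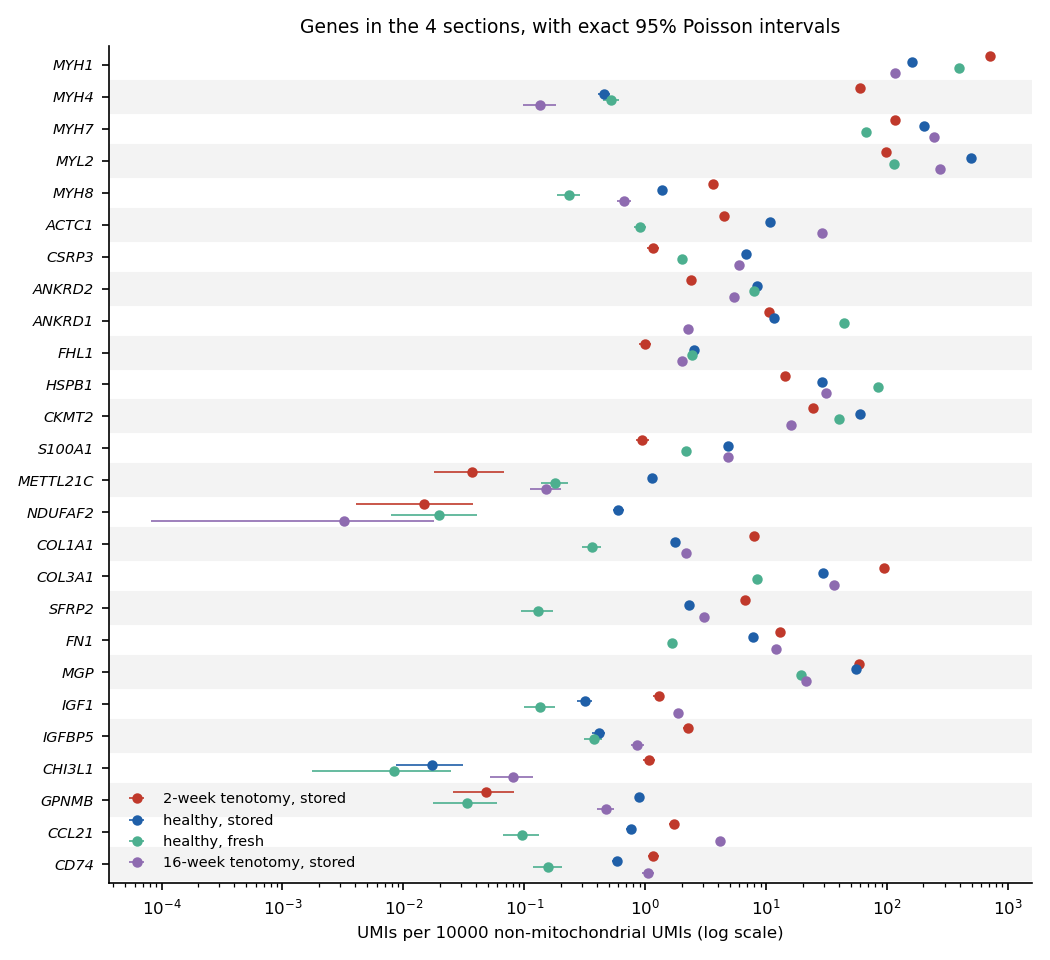
Levels of 26 genes in the 4 sections, as UMIs per 10000 non-mitochondrial UMIs (x axis, log scale), with exact 95% Poisson intervals for counting error. Each point is 1 section. MYH4, CHI3L1 and IGFBP5 stand highest at 2 weeks with both healthy sections close together, ANKRD2 and FHL1 lowest, and GPNMB, METTL21C and NDUFAF2 highest in the stored healthy section.

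Macrophage markers split. Of 17, 4 were past 2-fold higher and 3 lower, and their medians were -0.08 over stored but 1.78 over fresh healthy muscle. Their summed level was 10.4 at 2 weeks, 11.6 in stored and 3.42 in fresh healthy muscle. CHI3L1, a secreted chitinase-like protein, had 290 UMIs at 2 weeks, 11 in stored healthy, 3 in fresh healthy and 25 in 16-week muscle. Its log2 ratio was 5.90 [95% interval 5.10 to 6.98] over stored and 6.77 [95% interval 5.43 to 9.28] over fresh healthy muscle. It occurred in 132 of the 854 spots, and 5% of the spots held 69.3% of its UMIs. The mannose receptor MRC1 (30 and 30 UMIs, log2 ratio 1.24), FCER1G (1.11) and the lipid droplet protein PLIN2 (1.61) were the others past 2-fold higher, and all 4 were also past 2-fold above the fresh section.

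On the low side, the stored healthy section held transcripts that were scarce in the 2-week and fresh sections. GPNMB, a glycoprotein of lipid-laden macrophages, had 13 UMIs at 2 weeks, 570 in stored and 12 in fresh healthy muscle (log2 ratio -4.16 [95% interval -5.14 to -3.43] over stored, 0.51 over fresh). The elastase MMP12 had 1, 255 and 0, with 179 of the stored healthy UMIs in 1 spot (log2 ratio -6.17 [95% interval -12.07 to -4.27] over stored healthy muscle). ATP6V0D2, a proton pump subunit of osteoclasts and macrophages on the lysosome list, had 0, 60 and 0 UMIs, at least 8.48-fold lower than in stored healthy muscle when 3 counts stand for the 0. For GPNMB, 97.2% of the stored healthy UMIs lay in 5% of the spots. C1QA, a complement subunit made by macrophages, had 56, 343 and 63 UMIs (log2 ratio -1.37 [95% interval -1.81 to -0.97]), while C1QB and C1QC had 0.53 and -0.46. The general markers CD68, CD14, AIF1 and CSF1R had log2 ratios of -0.42, -0.08, 0.29 and 0.46 over stored and 1.64, 1.83, 2.30 and 1.98 over fresh healthy muscle.

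Cytokines, chemokines and interferon genes had medians of 0.97 and 1.43, with 4 of 8 past 2-fold higher and 0 lower. CCL21, the chemokine of lymphatic vessels, had levels of 1.73, 0.765 and 0.0956 and log2 ratios of 1.18 [95% interval 0.99 to 1.37] and 4.16. It was patchy, with 70.5% of its 2-week UMIs in 5% of the spots, and over stored healthy muscle it was short of 2-fold without COL1A1-rich spots (0.72), with the weighting by fiber mix (0.94), with the median of all genes at 0 (0.97) and in spots with an MYH7 share under 20% (0.26). IFIT3, an interferon-induced gene, had 0.73, 0.214 and 0.115 and log2 ratios of 1.77 [95% interval 1.45 to 2.10] and 2.65. The monocyte chemokine CCL2 (1.45 and 3.81) and STAT3 (1.21 and 0.73) were the other 2 and are named for their values. None of 9 antigen presentation genes was past 2-fold over stored healthy muscle (median 0.09), and 3 were past 2-fold higher over fresh healthy muscle (median 0.65). HLA-DRA, a class II chain, had 0.48 over stored and 3.26 over fresh healthy muscle, and 1.64 over stored healthy muscle in spots with an MYH7 share under 20%. CD74, the chaperone of class II molecules, lay at the threshold with levels of 1.17, 0.586 and 0.157 and log2 ratios of 1.0 [95% interval 0.78 to 1.22] and 2.88. Complement and coagulation genes had a median of 0.80, with 2 of 6 past 2-fold higher, among them C1R (1.04 and 1.49).

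Lymphocyte and granulocyte markers were scarce. None of 12 lymphocyte and plasma cell markers with a feature reached 50 UMIs, and their summed level was 0.174 at 2 weeks and 0.0424 in stored healthy muscle, a ratio of 4.10 [95% interval 2.50 to 6.85]. Granulocyte and mast cell markers had summed levels of 0.322 and 0.184, a ratio of 1.75 [95% interval 1.31 to 2.33]. The pan-leukocyte marker PTPRC had 11 and 8 UMIs. JCHAIN, the joining chain of plasma cells, named after its value was seen, had 28 and 5 (log2 ratio 3.61 [95% interval 2.33 to 5.45]). The granulocyte genes S100A8 and S100A9 had 15 and 31 UMIs at 2 weeks and log2 ratios of 0.64 [95% interval -0.42 to 1.62] and 0.68 [95% interval -0.04 to 1.36].

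Endothelial markers had a median of 0.06 with 2 of 8 past 2-fold higher, CCL21, with the limits given above, and PROX1, the regulator of lymphatic identity (47 and 52 UMIs, log2 ratio 1.09 [95% interval 0.49 to 1.69]), while von Willebrand factor (VWF) had -0.05. VCAM1, an adhesion molecule of activated endothelium and the 1 satellite cell marker that could be compared, had 69, 22 and 10 UMIs and a log2 ratio of 2.86 [95% interval 2.18 to 3.65]. Smooth muscle and pericyte markers had a median of -0.05. Smooth muscle myosin MYH11 had 1.04, and smooth muscle actin ACTA2 0.72. Adipose markers had 0.83, with 2 of 5 past 2-fold higher, CEBPA (189 and 163 UMIs, 1.45) and PPARG (49 and 36 UMIs, 1.68), the regulators of fat cell identity. S100B, a Schwann cell marker that fat cells also express, had 173 and 149 UMIs and a log2 ratio of 1.45 [95% interval 1.13 to 1.78].

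Some of the largest differences lay in single genes of small lists or outside the lists. METTL21C, a lysine methyltransferase of skeletal muscle, had 10 UMIs at 2 weeks, 729 in stored healthy, 64 in fresh healthy and 47 in 16-week muscle. It was past 2-fold below both healthy sections, with log2 ratios of -4.88 [95% interval -6.02 to -4.06] and -2.22, and in spots with an MYH7 share under 20% the ratio over stored healthy muscle was -3.77. PNMT, which makes adrenaline from noradrenaline, had 28, 340 and 120 UMIs (log2 ratios -2.34 and -1.68). The amino acid transporter SLC38A4 had 20, 209 and 147 (-2.12 and -2.45). The annexin gene ANXA8 had -1.86 over stored but 0.10 over fresh healthy muscle.

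On the high side, RXRG, a retinoid receptor, had levels of 1.41, 0.305 and 0.495 and log2 ratios of 2.21 [95% interval 1.96 to 2.47] and 1.51, and LIMCH1, a regulator of non-muscle myosin, 1.05, 0.181 and 0.34 with 2.53 [95% interval 2.22 to 2.86] and 1.62. Both were past 2-fold above both healthy sections, while the healthy sections differed by less than 2-fold from each other. Of the tendon markers, keratocan is given above, and TNMD had 1 UMI at 2 weeks and 81 in stored healthy muscle, where they lay in 40 of the 2440 spots.

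Of 5 cell cycle genes none was past 2-fold over stored healthy muscle (median log2 ratio -0.48), and 3 were past 2-fold higher over fresh healthy muscle (median 1.54), the replication helicase genes MCM3 (1.54) and MCM5 (1.56) and the cyclin CCND2 (1.98), named for their values. Of 4 immediate early genes none was past 2-fold over stored healthy muscle (median 0.03), and 1, ZFP36, was past 2-fold lower over fresh healthy muscle (-1.15). Of 5 clock genes, PER1 was past 2-fold higher over stored (1.41) but not over fresh healthy muscle (-0.21). Of 20 cytoskeletal genes, 7 were past 2-fold higher over fresh healthy muscle, beside 546 of all 4256 genes compared. Over stored healthy muscle 2 were past 2-fold higher, the ezrin relative RDX (1.03 and 1.01) and thymosin TMSB10 (1.11 and 1.07), and 1 lower, the muscle cofilin CFL2 (-1.05 and -0.27). Of the blood cell markers, the carbonic anhydrase CA2 had 2.04 and 0.06, and ALAS2, the heme synthesis enzyme of red cells, had 13, 75 and 40 UMIs and log2 ratios of -1.25 and -1.19.

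Among the 153 genes past 2-fold above both healthy sections, PCK2 and several that encode secreted or membrane proteins were chosen for naming after their values were seen. CPXM1, a secreted carboxypeptidase relative, had a level of 0.385 at 2 weeks, 0.0267 in stored, 0.00281 in fresh healthy and 0.0838 in 16-week muscle (log2 ratio 3.82 [95% interval 3.10 to 4.68] over stored healthy muscle). Osteocalcin (BGLAP), a protein of bone matrix, had 89, 10, 0 and 13 UMIs in the 2-week, stored healthy, fresh healthy and 16-week sections, and the proteoglycan epiphycan (EPYC) 48, 12, 1 and 32. In BGLAP and EPYC the 2-week section held the most UMIs of the 4 sections, although its total was the lowest. CCDC80, a matrix-bound protein, had levels of 5.48, 2.01 and 0.809 and log2 ratios of 1.44 and 2.76, and ITM2A, a membrane protein of differentiating muscle and cartilage, 1.09, 0.298 and 0.0422 with 1.87 and 4.65. PCK2, the mitochondrial enzyme that makes phosphoenolpyruvate, had 40, 19 and 10 UMIs and log2 ratios of 2.29 and 2.35.

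Of 626 features without a symbol and with at least 200 UMIs over both sections, 13 were past 2-fold above both healthy sections and 9 below. The shares of all genes compared, 3.59% and 0.940%, rest on a lower UMI minimum. Whether features without a symbol differ from the rest was therefore not tested. ENSOCUG00000027394 had 806, 19 and 251 UMIs in the 2-week, stored and fresh healthy sections and 10589 in the 16-week section. ENSOCUG00000004509, the most abundant of the low ones, had levels of 72.2, 278 and 234 and log2 ratios of -1.95 and -1.70. Both identifiers were chosen after their values were seen, and no gene name was available for them here.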

How the data were processed

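Spatial expression was measured with Visium in 4 sections, 1 per condition, of which the 2-week and stored healthy sections were compared here. The authors aligned reads to the rabbit genome build OryCun2.0 with Ensembl gene annotation, using Space Ranger 1.2.0, and deposited the UMI counts per gene and spot under tissue, not normalized and with no replicates. No cells were called or clustered and no doublets removed, since a spot covers several cells. Deposited spot positions and images were not used here.

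UMIs were summed over all spots of a section with Python 3.11.15, numpy 2.4.6, pandas 2.3.3 and scipy 1.17.1, and plotted with matplotlib 3.10.9. Levels are UMIs per 10000 UMIs of genes other than the 37 mitochondrially encoded ones. Log2 ratios used counts plus 0.5 and were read for genes with at least 50 UMIs over both sections; the threshold was 2-fold. Intervals are exact (Poisson, Clopper-Pearson and conditional binomial, 95%). UMIs mark molecules, but intervals cover counting error only. With 1 section per condition there are no replicates, pairs or tests. For thinned shares of spots with a gene, spots were thinned to 1000 non-mitochondrial UMIs and shallower spots were left out. The spots left out numbered 69 at 2 weeks, 176 in stored and 486 in fresh healthy muscle. The scripts were tested on simulated data.

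Genes were grouped into 55 lists. Members, lists and thresholds were chosen with earlier results of these data known. Named genes were the 10 highest and 10 lowest log2 ratios with at least 200 UMIs, up to 8 list members past 2-fold with at least 200 UMIs, the 3 members of each list with most UMIs, and a few fixed genes; others are said to be named after their values were seen, or stand as further examples of their list. Of 21139 features, 9803 carry no gene symbol, and they were kept by identifier. Alternatives covered the denominator, scaling, spot filters, spot weights, fiber mix, the reference section and the UMI minimum.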

Additional observations from a re-analysis of the deposited data

Results flagged for a closer look

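Among the named genes, 7 were past 2-fold on opposite sides of the stored healthy section at 2 weeks and at 16 weeks after tenotomy, which is why they are listed. Both ratios share the stored healthy section, the tenotomy sections come from differently numbered animals, and the difference between 2 and 16 weeks was not tested. MYH4 had a log2 ratio of 7.03 at 2 weeks and -1.75 at 16 weeks. ATP2A1 had 1.64 and -1.35, PHKA1 1.35 and -1.09, and the neonatal myosin MYH8 1.39 and -1.04. In the other direction, the cardiac actin ACTC1 had -1.25 at 2 weeks and 1.45 at 16 weeks, the complement gene C1QA -1.37 and 1.45, and ALAS2 -1.25 and 1.13. The MYH7 share of adult myosin heavy chain UMIs, which bears on the fast fiber genes among these, was 13.2% at 2 weeks, 55.4% in stored healthy and 67.7% in 16-week muscle, and its part in these values was not tested. A check for single sections far from their group could not be made, since no group has 4 sections.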

How the results depend on the processing

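The counts of genes past 2-fold (404 higher, 145 lower) stayed within 1.5 times under the filter on spots with at least 500 UMIs, without COL1A1-rich spots, with equal spot weights and against the fresh healthy section. They were 1027 and 68 with all UMIs as the denominator, 226 and 227 with the median log2 ratio at 0, and 625 and 261 with the myosin mix weighted to the stored healthy section. By construction they depended on the minimum, at 146 and 76 with 200 UMIs, 701 and 236 with 20 UMIs and 2500 and 938 with none. They were 114 and 65 when the interval's bound had to pass 2-fold, and 153 and 40 against both healthy sections, a comparison chosen after seeing the data. The mitochondrial share as the median of spots was 33.0% at 2 weeks and 50.9% in stored healthy muscle.

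Of 78 named genes past 2-fold, all 78 stayed past it in spots with at least 500 UMIs, 70 with equal spot weights, 63 with all UMIs, 62 without COL1A1-rich spots and 59 with the median at 0. Without each gene's 5% richest spots 72 of 73 stayed past it, and 5 genes were left without a value because no more than 3 UMIs remained in either section. That setting can empty the section in which few spots hold a gene, so ratios can grow by construction. GSTA5 went from 3.41 to 9.94 and LIMCH1 from 2.53 to 9.74, so this count is no measure of stability. In spots with an MYH7 share under 20%, a comparison added after seeing the data, 53 stayed past 2-fold and ACTC1 changed sign, at 1.02. With the myosin mix weighted, 42 stayed past it and 6 changed sign, namely CA2 (-0.032), TNNC1 (0.34), MYL3 (0.14), MYH7B (0.41), MYL4 (-0.85) and MYH11 (-0.22), and the median of the slow fiber class came to 0.28. Against the fresh section 41 of 77 stayed past it. The sign changed for 11, with log2 ratios of -0.75 for DNAJB9, 0.23 for C1QA, 0.048 for FABP3, 0.14 for TNNC1, 0.38 for MYL3, 2.30 for ACTC1, 0.10 for ANXA8, -0.16 for PSMD3, -0.21 for PER1, 0.51 for GPNMB and -1.53 for HSPB8, and the median of the slow fiber class was 0.080. The cause of these changes was not tested.

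With 1 section per condition, leaving out a replicate was not done. No paired analysis was possible because each condition has 1 section and no result comes from a test. Depth limits the scarce genes, with genes under 50 UMIs not compared, and counting intervals say nothing of the spread between animals.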

Other observations

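Both sections numbered 14, stored healthy and 16-week muscle, were at least 4-fold apart on the same side from both the 2-week and the fresh healthy section in 5 of 3255 features. MMP12 had 255 and 12 UMIs in the sections numbered 14 (stored healthy, then 16-week) against 1 at 2 weeks and 0 in fresh healthy muscle. GPNMB had 570 and 147 against 13 and 12, and HYI, a gene for a hydroxypyruvate isomerase, 152 and 105 against 12 and 8. On the low side, ENSOCUG00000022825 had 22 and 4 UMIs against 687 and 1939. Part of the list of genes lower at 2 weeks than in stored healthy muscle thus also separates the sections by number. Each side of that split holds a cut and an uncut muscle, so it does not divide the sections by tenotomy. Its cause was not tested.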
